A study of Caenorhabditis elegans with 8 samples.

Results

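The 15321 genes that passed a filter on low counts, of 20182 counted, were compared between glp-1 mutant and wild type Caenorhabditis elegans that had both been fed RNAi bacteria against rege-1. The mutant strain carried the allele glp-1 (e2141), and the wild type was the laboratory strain N2. Each strain had 2 libraries under rege-1 RNAi, and 2 libraries per strain on a mock RNAi food were set beside them. All animals came from synchronized larvae placed on the RNAi food at the first larval stage, and whole young adults were frozen for total RNA. Growth at 25 °C is stated for glp-1 and no temperature is stated for N2, so that strain and temperature cannot be told apart in any difference given here. The labels do not say whether the libraries of a group came from separate cultures or how many animals each held, and every p therefore measures the spread between these libraries, which may be technical. In whole animals, fewer cells of a type and less RNA per cell cannot be told apart.

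GLP-1 is a Notch receptor on germ cells that keeps the stem cells of the germline dividing. In the temperature-sensitive e2141 mutant, growth at the restrictive temperature leaves animals with few germ cells, and such animals are known for a long life and an altered fat metabolism. REGE-1 is an RNase that degrades the mRNA of the transcription factor gene ets-4, so that animals lacking REGE-1 accumulate ets-4 mRNA and lose body fat. The comparison asks which strain differences are present in treated animals and which of them are seen under this feeding alone.

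The labels were checked first. The mRNA of rege-1 (WBGene00016260, chromosome I from 6954414 to 6961139, minus strand, WBcel235) stood at 101 and 78.4 CPM in the N2 libraries labelled rege-1 RNAi and at 67.8 and 65.3 CPM in the glp-1 ones, where CPM is a count scaled to a fixed library total after TMM normalization. Its mock levels were 13.9 and 13.8 CPM in N2 and 15.3 and 15.6 CPM in glp-1. The counts over the targeted gene were thus higher and not lower in the libraries labelled RNAi in both strains, and a knockdown cannot be read from these counts. Whether the rege-1 counts hold reads from the RNAi trigger itself was not tested, so they cannot be taken as the gene's own transcript alone. Between the strains under RNAi it differed by a log2 of -0.43 (SE 0.14), which missed the threshold of 0.05 (edgeR adjusted p = 0.0512). The intron counts of rege-1 differed far more, with 4166 and 3265 in N2 against 240 and 296 in glp-1 under RNAi (log2 -3.95, SE 0.35, edgeR adjusted p = 4.75e-07). Under mock they were 15 and 15 in N2 and 40 and 25 in glp-1. Whether they too hold reads from the trigger was not tested, so this cannot be read as a strain difference in the gene's own transcript. The mRNA of ets-4 was at 78.4 and 109 CPM in N2 and 70.5 and 80.3 CPM in glp-1 under RNAi, and its mock levels were 18.1 and 21.2 CPM in N2 and 20.3 and 19.4 CPM in glp-1. It was thus above its mock levels in both strains, and its strain difference under RNAi was not called (log2 -0.31, adjusted p = 0.191).

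Germline transcripts were abundant in the glp-1 libraries, although the allele and the stated temperature would give a loss of germ cells. The labels do not explain these levels, and the number of germ cells was not tested. The mRNA of glp-1 itself, which carries a point mutation in e2141 so that its level does not check the allele, was at 421 and 438 CPM in N2 and 208 and 349 CPM in glp-1 (log2 -0.63, adjusted p = 0.0743). The P granule gene pgl-1 was at 445 and 462 against 360.3 and 358 CPM, and the meiotic chromosome axis gene him-3 at 99.4 and 91.4 against 92.9 and 96.6 CPM. The eggshell gene cbd-1 was at 2693 and 2386 against 1816 and 1805 CPM. By the means of the 2 libraries, none of the tested members of the stem cell, P granule, meiosis and oocyte lists was under 50% of its N2 level in glp-1. These lists held 16, 15, 39 and 31 genes, and none was at 0 counts in both glp-1 RNAi libraries. The summed levels of these lists in glp-1 were 75.8%, 71.5%, 78.1% and 78.5% of those in N2, in that order. Single libraries could lie lower: the meiosis gene rad-50 was at 411 and 462 CPM in N2 and 124 and 365 CPM in glp-1. The strains were nonetheless distinct: the acyl-CoA dehydrogenase gene acdh-1 was at 4.59 and 3.16 CPM in N2 and 1096 and 1164 CPM in glp-1, with a gap of the same kind under mock.

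**Figure D1:**
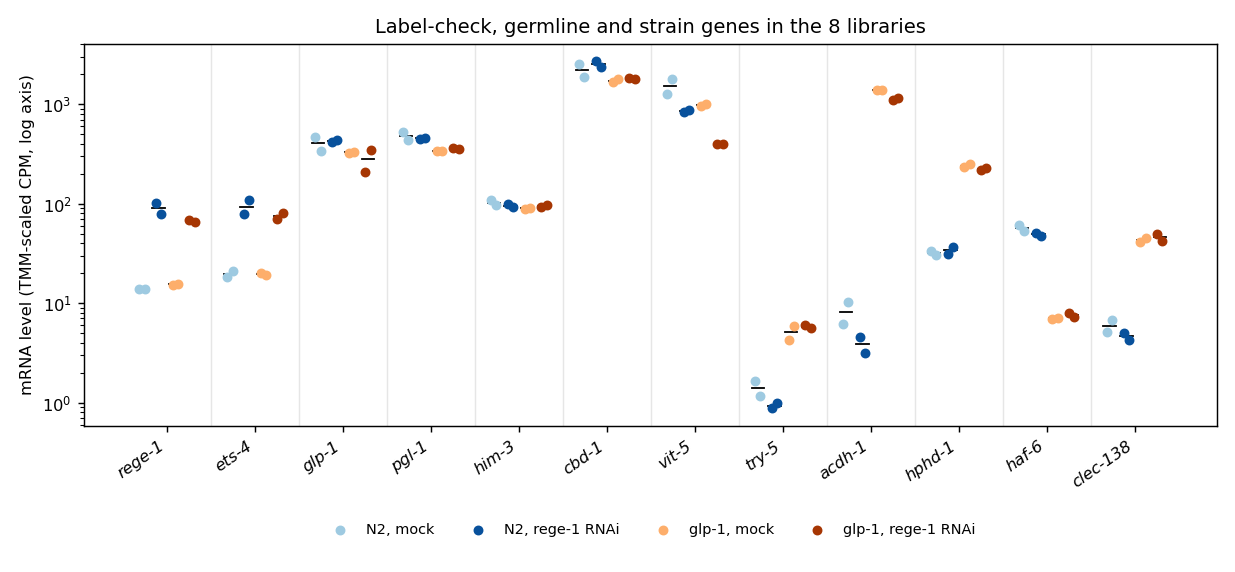
Levels of 12 genes in each of the 8 libraries, in CPM on a log axis, with 1 point per library, a bar at the mean of the 2 libraries and colours for the 4 groups. The rege-1 and ets-4 points of both strains are higher under RNAi, the germline genes glp-1, pgl-1, him-3 and cbd-1 lie close together in all groups, and acdh-1, hphd-1, haf-6 and clec-138 separate the strains under both feedings.

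Library totals were alike, from 26127079 to 30093967 mRNA counts. Replicates differed by more than counting error, which alone gives a chi-square of about 1 per gene: the mean over genes was 27 for N2 and 52.3 for glp-1 under RNAi. Under mock it was 36 for N2 and 3.29 for glp-1, and these groups enter the shared estimate of spread behind the RNAi calls. Libraries also differed in how counts changed with the coding length of genes. The Spearman correlation over genes of a library's deviation with coding length was 0.226 and 0.363 in N2 under RNAi, and -0.457 and -0.0553 in the glp-1 RNAi libraries, as a description. How far this trend enters the strain differences was measured by removing it, and its values stand beside the results it moves.

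Under rege-1 RNAi, 2774 genes differed between the strains, which is 18.1% of those tested (edgeR quasi-likelihood test, adjusted p under 0.05). Of these, 1619 genes (10.6%) were higher and 1155 (7.54%) were lower in glp-1. Most lower genes differed little: 246 of the 1155 (1.61% of the genes tested) were at least 2-fold apart, against 779 of the 1619 higher genes (5.08%), and the median log2 differences were -0.65 and 0.98. The higher genes were short, with a median coding length of 774 bases, and the lower ones long, with 2106, against 1095 for all genes tested. Among genes with more than 2400 coding bases 27.1% were lower and 1.79% higher, and among those of up to 300 bases 1.54% were lower and 21% higher. With the trend over coding length removed, 2238 genes were called, 1711 of which (61.7% of the 2774) were the same genes, and 10 of the 2774 turned sign. The count also rested on single libraries: it was 517 without N2 RNAi replicate 2, 1250 without glp-1 RNAi replicate 1, 1458 and 1454 without glp-1 mock replicate 1 or 2, which enter through the shared estimate of spread, and 875 in a fit of the 4 RNAi libraries alone. Without glp-1 RNAi replicate 2 it was 4031, with 2410 lower. Scaled by library size alone, the median of all genes moved from 0.02 to 0.18 and the calls split into 2610 higher and 548 lower. A core of 436 genes, 334 higher and 102 lower, was called under all 16 alternatives tried.

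**Figure D2:**
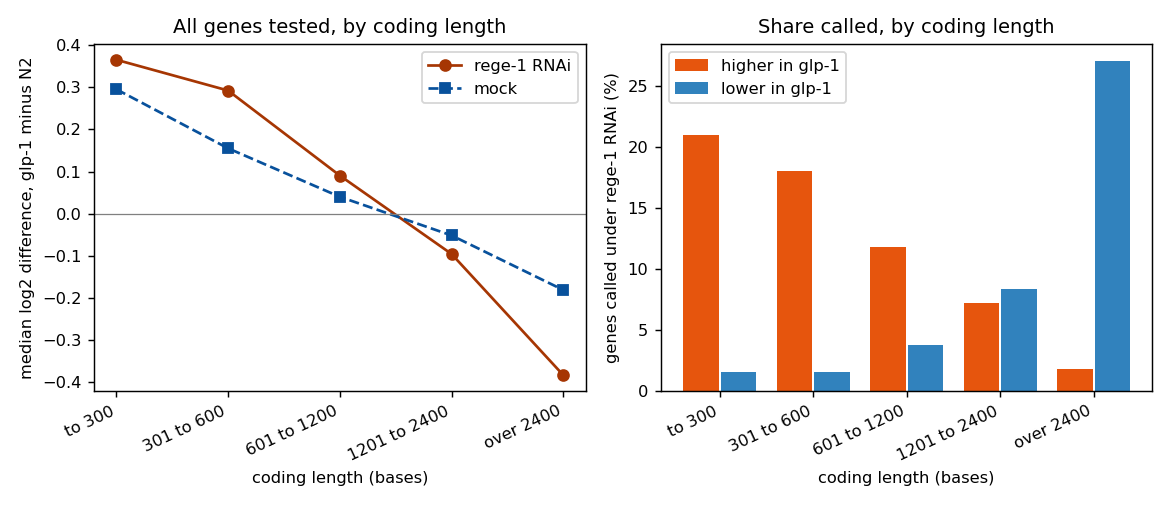
Strain difference by coding length in 5 bins of the 15321 genes, with the median log2 difference under each feeding in the left panel and the percentage of genes called under rege-1 RNAi in the right panel. The median falls from 0.37 in the shortest bin to -0.38 in the longest under RNAi and from 0.30 to -0.18 under mock, and lower calls reach 27.1% in the longest bin.

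The largest difference was in acdh-1, which was higher in glp-1 under both feedings. Genes were ranked where they were called, averaged 5 CPM or more in the strain that was higher, and had libraries that did not overlap. The gene acdh-1 (WBGene00016943, chromosome I from 6497436 to 6499560, plus strand, WBcel235) was 8.19 log2 units higher in glp-1 (SE 0.30, edgeR adjusted p = 1.72e-07), and 7.40 higher under mock. Its enzyme takes the first step of the propionate shunt, a route that breaks down propionate when vitamin B12 is scarce. Of the 5 shunt genes, 4 were higher in glp-1 (80%, beside 10.6% of all genes) and 0 lower, in a list put together after acdh-1 had been seen. The dehydrogenase gene hphd-1, which acts in the middle of the shunt, was at 31.1 and 36.5 CPM in N2 and 218 and 227 CPM in glp-1 (log2 2.72, adjusted p = 1.26e-06). The hydratase gene ech-6 was at 261 and 241 against 859.6 and 748 CPM (log2 1.68) and the hydrolase gene hach-1 at 97.2 and 114 against 197 and 176 CPM (log2 0.82). The libraries of the strains did not overlap for any of these genes, as for 61.5% of all genes tested and for every called gene. All 4 were called under every alternative. The last shunt gene, alh-8, was not called (log2 0.32, adjusted p = 0.169). Of 6 genes of the B12-dependent route only mmab-1, for a cobalamin adenosyltransferase, was called. It was at 41.8 and 41.2 CPM in N2 and 64.3 and 56.3 CPM in glp-1 (log2 0.54, adjusted p = 0.023). The mmab-1 call was lost with the length trend removed and in the RNAi libraries alone. It was also lost without N2 RNAi replicate 1 or 2, glp-1 mock replicate 1 or 2, or glp-1 RNAi replicate 1.

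Among the 15 largest higher differences were 2 C-type lectin genes (clec-138 and clec-133), 2 secreted SCP-like genes (scl-9 and scl-15), an RNase H gene (rnh-1.3) and an insulin-like gene (ins-31). The lectin gene clec-138 was at 5.04 and 4.26 CPM in N2 and 49.7 and 42.4 CPM in glp-1 (log2 3.31, adjusted p = 1.90e-06). The gene rnh-1.3 was at 9.63 and 7.45 against 95.9 and 75.9 CPM (log2 3.33, adjusted p = 1.26e-06). The insulin-like gene ins-31 was at 11.4 and 8.55 against 106 and 79.8 CPM (log2 3.22, adjusted p = 2.35e-06). All 15 were called under every alternative, and all 15 were also called under mock, with log2 differences from 2.86 to 7.40 there. The srlf genes, 21 short genes named alike in the files, gave 13 higher (61.9%, beside 10.6% of all genes) and 0 lower. Among them srlf-26 was at 3.98 and 3.41 CPM in N2 and 34.6 and 31.5 CPM in glp-1 (log2 3.16). This list too was put together after its members had been seen.

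Cuticle genes led the lower differences. By the same rule of level and overlap, 8 of the 15 largest were cuticle collagen genes, namely col-88, col-77, col-156, col-97, col-161, col-14, col-60 and dpy-4. The collagen gene col-88 was at 21.7 and 18.2 CPM in N2 and 0.834 and 3.35 CPM in glp-1 (log2 -3.25, adjusted p = 8.84e-04), and dpy-4 at 19.9 and 15.8 against 1.88 and 3.32 CPM (log2 -2.78, adjusted p = 0.00192). Of the 15, 11 were also called under mock, and 11 were called under every alternative. The ABC transporter gene haf-6 (WBGene00001816, chromosome I from 1162880 to 1175809, minus strand, WBcel235), which is needed for efficient RNAi, was at 51.2 and 47.6 CPM in N2 and 7.89 and 7.25 CPM in glp-1 (log2 -2.70, SE 0.15, adjusted p = 1.53e-06). It was as far apart under mock (log2 -3.03), and the other 6 haf genes were not called. Of 18 genes for the uptake and use of feeding RNAi 1 was called (5.56% lower, beside 7.54% of all genes). This was rsd-6, with 177 and 189.7 CPM in N2 and 107 and 144 CPM in glp-1 (log2 -0.55, adjusted p = 0.0351). It was not called by library size alone, by limma or in the RNAi libraries alone. Its call was also lost without N2 RNAi replicate 1 or 2, glp-1 mock replicate 1 or 2, or glp-1 RNAi replicate 1. The genes rde-12, rsd-2, sid-3 and dcr-1 missed the threshold.

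The cuticle collagens split by level. Of 127 tested, 48 were lower (37.8%, beside 7.54% of all genes) and 7 were higher in glp-1, and the median log2 was -0.57 beside 0.02 for all genes. The 48 lower ones were all among the 101 collagens under 100 CPM, whose median was -1.17. Among the 26 at 100 CPM or more, 5 were higher and 0 lower, and the median was 0.43, at a limit chosen after values had been seen. The summed level of all 127 was 136% of N2 in glp-1, opposite in direction to the median. The low collagen col-180 was at 20.6 and 20.3 CPM in N2 and 5.42 and 5.67 CPM in glp-1 (log2 -1.88, adjusted p = 4.88e-05), and the abundant col-8 at 1976 and 1402 against 3016 and 2828 CPM (log2 0.79, adjusted p = 0.0213). The collagens bli-1 and rol-6, markers of the hypodermis, went with the low group (log2 -2.18 and -2.33), and the other 10 hypodermis markers were not called, among them the adult collagen col-19 (3143 and 2266 against 3919 and 3231 CPM). Of the 48, 41 were also called under mock, and 24 were called under every alternative. The counts with the length trend removed were 6 higher and 49 lower. Without N2 RNAi replicate 2 they were 0 and 31, and without glp-1 RNAi replicate 1 they were 2 and 24.

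Some hedgehog-related and molting genes were also lower. Of 31 hedgehog-related genes, a family of secreted proteins of the epidermis, 9 were lower (29%, beside 7.54% of all genes) and 1 higher, 11 had a log2 above 0 and the median was -0.39, in a list chosen after values had been seen. The lower count was 5 without N2 RNAi replicate 2 and 4 without glp-1 RNAi replicate 1. The gene wrt-4 was at 5.12 and 3.85 CPM in N2 and 0.348 and 0.518 CPM in glp-1 (log2 -3.36, adjusted p = 1.48e-04), and grl-16 at 24.7 and 17.4 against 1.74 and 4.91 CPM (log2 -2.66, adjusted p = 0.00882). The gene grd-5 was the higher one, at 102 and 81.99 against 173 and 121 CPM. Of 15 molting genes, 4 were lower (26.7%, beside 7.54%), namely qua-1, ptr-4, mlt-10 and mlt-8, with log2 differences from -1.58 to -0.92. Each of the 4 was at 8.99 CPM or less in every library, so that these calls rest on low levels, and 0 were called without N2 RNAi replicate 2 and 1 without glp-1 RNAi replicate 1.

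Germline lists leaned towards lower levels by less than 2-fold. Of 15 P granule genes 9 were lower and 0 higher (median log2 -0.47). The Vasa-like helicase gene glh-2 was at 85.5 and 115.02 CPM in N2 and 50.3 and 56.1 CPM in glp-1 (log2 -0.91, adjusted p = 0.00339), and meg-3, for a protein that organizes P granules in the embryo, at 78.8 and 79.8 against 44.6 and 48.01 CPM (log2 -0.78, adjusted p = 0.00341). Both were called under every alternative, and no other member of the germline lists apart from sperm was. Of 16 genes of the stem cell and Notch list 5 were lower and 0 higher (median -0.35), among them gld-1, a repressor of translation that drives germ cells out of mitosis (267 and 283 against 185 and 183 CPM, log2 -0.58). Of 39 meiosis genes 4 were lower and 0 higher (median -0.33), a share of 10.3% beside 7.54% of all genes. Of 35 replication and cell cycle genes 9 were lower and 0 higher, and of 31 oocyte and eggshell genes 8 were lower and 0 higher, with lin-41, which restrains oocyte maturation, at 221 and 259 against 149 and 155 CPM (log2 -0.66). These counts were 0 for the stem cell, meiosis, replication and oocyte lists without N2 RNAi replicate 2, as also in a fit of the RNAi libraries alone, and 2 and 3 for P granules. Without glp-1 RNAi replicate 2 they were 21 for meiosis and 18 for replication, and without glp-1 RNAi replicate 1 they were 1 for the stem cell and meiosis lists and 4 for the oocyte list. The genes of these lists were longer than most, with median coding lengths from 1470 to 2163 bases, and with the length trend removed 4, 6, 3, 7 and 5 members of the stem cell, P granule, meiosis, replication and oocyte lists were lower.

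Some transcripts tied to sperm or the male ejaculate were higher in glp-1. Of 56 genes listed with spermatogenesis, other than the major sperm proteins, 23 were higher (41.1%, beside 10.6% of all genes) and 0 lower. In this list 52 had a log2 above 0 (median 0.76). The gene try-5, for a protease that activates sperm in the male ejaculate, was at 0.872 and 0.991 CPM in N2 and 6.01 and 5.6 CPM in glp-1 (log2 2.63, adjusted p = 1.07e-04). The sperm gene ssp-16 was at 1.21 and 0.771 against 3.37 and 2.83 CPM (log2 1.64) and spe-47 at 1.06 and 0.771 against 2.78 and 2.52 CPM (log2 1.53). Of 12 major sperm protein genes, near-identical copies that can share reads, 2 were higher, msp-142 and msp-50, and the median was 0.75. The Argonaute genes alg-3 and alg-4, which act in spermatogenesis, were the 2 higher of 23 members of the germline small RNA list, 5 of which were lower (21.7%), with alg-4 at 9.86 and 7.08 against 14.3 and 15.8 CPM (log2 0.83). These 2 of 23 (8.7%, beside 10.6% of all genes) were called under 6 (alg-3) and 10 (alg-4) of the 16 alternatives. Neither was called in the RNAi libraries alone or without N2 RNAi replicate 2, and alg-3 was not called with the size factors of DESeq2 or by its test. With the length trend removed 18 of the 56 and 0 of the 12 major sperm protein genes were higher, and without N2 RNAi replicate 2 these counts were 2 and 0, with 5 of the 56 without glp-1 RNAi replicate 1 and 7 in the RNAi libraries alone. The genes try-5 and ssp-31 were called under every alternative, and of these try-5 is a gene of the ejaculate.

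Most yolk genes were lower in glp-1. The vitellogenins are made in the intestine and taken up by oocytes. Of the 6, 5 were lower (83.3%, beside 7.54% of all genes), with a median log2 of -0.93. The most abundant, vit-6, was at 18693 and 23563 CPM in N2 and 13344 and 11766 CPM in glp-1 (log2 -0.75, adjusted p = 0.0425). The gene vit-5 was at 826 and 871 against 402 and 394 CPM (log2 -1.09, adjusted p = 0.00243), vit-3 at 146 and 113 against 63.4 and 69.9 CPM (log2 -0.96), and vit-1 at 1572 and 2259.5 against 988 and 949 CPM (log2 -0.98). In each case both N2 libraries were above both glp-1 libraries, as for all 1155 genes called lower. The sixth, vit-2, was at 4756 and 8579 against 3847 and 3257 CPM, with N2 libraries far apart, and was not called (adjusted p = 0.0599). These are long genes of similar sequence, with a median of 4827 coding bases: with the length trend removed only vit-5 was called, at -0.63. Only vit-5 was called under every alternative: the lower count was 3 by library size alone and in the RNAi libraries alone, 2 without N2 RNAi replicate 2 or glp-1 RNAi replicate 2 and 1 without glp-1 RNAi replicate 1, and vit-6 was among those lost in each of these. The receptor gene rme-2, by which oocytes take up yolk, was at 1061 and 945 against 771 and 717 CPM and was not called (adjusted p = 0.116), like the 9 other genes of the list of yolk regulators.

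Lipid genes had calls in both directions. Of 22 genes of fatty acid synthesis, 4 were higher (18.2%, beside 10.6% of all genes) and 1 lower (4.55%): the desaturase gene fat-7 was at 4.06 and 1.76 CPM in N2 and 14.8 and 13.7 CPM in glp-1 (log2 2.29, adjusted p = 6.23e-04), and dgat-2, for an acyltransferase that makes triacylglycerol, at 20.3 and 20.2 against 42.0 and 34.9 CPM (log2 0.93, adjusted p = 0.00448). Both were called under every alternative. The others higher were elo-8 and fat-5, and mdt-15, a Mediator subunit that drives such genes, was the lower one (log2 -0.62). Of 12 lipase and lipid droplet genes 4 were lower (33.3%, beside 7.54% of all genes) and 0 higher. The lysosomal lipase gene lipl-1, at 355 and 429.6 against 225 and 181 CPM, differed by a log2 of -0.95 (adjusted p = 0.00273), and lipl-2, at 83.2 and 92.6 against 45.5 and 56.2 CPM, by -0.79. Of 43 genes of fatty acid oxidation 5 were higher and 5 lower (11.6% each), with acdh-1 and ech-6 among the higher ones and the carnitine palmitoyltransferase gene cpt-4 among the lower ones (7.55 and 9.65 against 2.5 and 3.94 CPM, log2 -1.42). Without N2 RNAi replicate 2 the higher and lower counts were 2 and 0 for synthesis, 0 and 2 for lipases and 3 and 0 for oxidation.

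Of 23 factors tied to the long life of germline-less animals, 3 were lower (13%, beside 7.54% of all genes) and 1 was higher (4.35%, beside 10.6%). The higher one, the nuclear receptor gene nhr-80, was at 21.9 and 22.1 CPM in N2 and 33.2 and 33.3 CPM in glp-1 (log2 0.59, adjusted p = 0.0354). Without N2 RNAi replicate 2 or glp-1 RNAi replicate 1, 0 of the 23 were called. The factor daf-16 was not called (log2 -0.45, adjusted p = 0.052). Of 20 genes known to be induced by DAF-16, 4 were higher (20%) and 1 lower (5%), and 2 and 1 without N2 RNAi replicate 2. The lysozyme gene lys-7 was at 12.3 and 7.41 against 33.4 and 29.7 CPM (log2 1.68, adjusted p = 4.31e-04), the superoxide dismutase gene sod-3 at 3.41 and 2.35 against 9.39 and 7.29 CPM (log2 1.53, adjusted p = 0.00387), and the metallothionein gene mtl-1 at 2.47 and 3.52 against 7.65 and 5.84 CPM (log2 1.17). The median of the 20 was 0.08 and turned negative with the length trend removed, so that no direction is given for the list. Of 20 heat shock genes 4 were lower (20%, beside 7.54% of all genes), namely hsp-3, hsp-110, hsp-1 and hsp-4, and hsp-25 was higher (5%, beside 10.6%). None of the 5 was called without N2 RNAi replicate 2 or in the RNAi libraries alone, and hsp-25 was also not called with the size factors of DESeq2, by DESeq2 or with the length trend removed.

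Many innate defence genes were higher in glp-1. Of 153 C-type lectin genes 52 were higher (34%, beside 10.6% of all genes) and 10 lower, and 37 and 4 of these were called under every alternative. The lectin gene clec-137 was at 7.59 and 8.18 CPM in N2 and 65.95 and 68.9 CPM in glp-1 (log2 3.10, adjusted p = 1.26e-06), and clec-197 at 10.8 and 11.9 against 94.4 and 75.6 CPM (log2 2.90). Lower ones were clec-70, at 236 and 199 against 82.7 and 79.3 CPM (log2 -1.42, adjusted p = 7.09e-05), and clec-52, at 156 and 216 against 67.3 and 44.5 CPM (log2 -1.73). The summed level of all 153 was 101% of that in N2. Of 40 antimicrobial peptide genes 17 were higher and 2 lower, with fip-3 at 0.948 and 0.734 against 10.5 and 7.22 CPM (log2 3.39, adjusted p = 3.59e-05) and the epidermal peptide gene nlp-29 among the lower ones (9.52 and 9.36 against 4.35 and 3.18 CPM, log2 -1.33). These are short genes, and with the length trend removed 10 were higher and 5 lower. The higher count was also 10 without N2 RNAi replicate 2, and 9 without glp-1 RNAi replicate 1. Members of these families can share reads with near-identical copies.

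Of 33 lysozyme and saposin-like genes 6 were higher (18.2%, beside 10.6% of all genes) and 5 lower (15.2%, beside 7.54%), and of 21 aspartyl and cysteine protease genes 4 were higher (19%) and 2 lower (9.52%). The aspartyl protease gene asp-13 was at 34.5 and 22.6 CPM in N2 and 130.4 and 127 CPM in glp-1 (log2 2.17, adjusted p = 2.12e-05), while asp-12 was at 2184 and 3520.2 against 501 and 496 CPM (log2 -2.52, adjusted p = 2.93e-05). Of 15 infection response genes 2 were higher (13.3%) and 6 lower (40%), with irg-5 at 90.8 and 129.99 against 23.4 and 25.7 CPM (log2 -2.17, adjusted p = 8.84e-04). Under mock 4 of the 15 were higher and 1 lower, beside 6.49% and 3.24% of all genes. The median log2 of this list was 0.55 under mock and -0.31 under RNAi. Of its 6 lower genes 1 was also called lower under mock, and the test of the difference called 0 of the 15. Among detoxification genes, 12 of 64 UDP-glucuronosyltransferases were higher (18.8%) and 5 lower (7.81%), and 9 of 40 glutathione S-transferases were higher (22.5%) and 1 lower (2.5%). Of 62 cytochrome P450 genes 7 were higher (11.3%) and 7 lower (11.3%), near the shares of all genes. Without N2 RNAi replicate 2, the higher and lower counts were 2 and 3 for lysozymes and saposins, 2 and 2 for proteases, 0 and 1 for infection response, 4 and 3 for UDP-glucuronosyltransferases, 0 and 0 for glutathione S-transferases, and 0 and 5 for cytochrome P450 genes. The cytochrome P450 gene cyp-34A9 was at 61.7 and 59.3 against 20.4 and 20.8 CPM (log2 -1.56, adjusted p = 1.48e-05) and the transferase gene ugt-66 at 6.3 and 4.07 against 17.8 and 21.1 CPM (log2 1.91, adjusted p = 1.59e-04).

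Many neuropeptide and insulin-like genes were higher in glp-1. Of 113 tested, 45 were higher (39.8%, beside 10.6% of all genes) and 1 lower, and 100 had a log2 above 0 (median 0.77). The FMRFamide-like peptide gene flp-18 was at 16.16 and 16.6 CPM in N2 and 37.4 and 36.4 CPM in glp-1 (log2 1.17, adjusted p = 9.29e-04). The intestinal peptide gene nlp-40, which times defecation, was at 156 and 148 against 323 and 266 CPM (log2 0.95, adjusted p = 0.00178). These genes are short, with a median of 288 coding bases, and with the length trend removed 21 were higher and 4 lower. The higher count was 12 without N2 RNAi replicate 2, 15 without glp-1 RNAi replicate 1 and 16 in the RNAi libraries alone. The 30 neuron markers had a median of 1589 coding bases, beside 1095 for all genes tested. Of these, 6 were higher and 0 lower (median 0.28), with the tubulin gene mec-7 of touch neurons at 15.3 and 15.2 against 25.8 and 23.01 CPM (log2 0.68). The counts were the same with the trend removed, but the genes were not, as rab-3 was then not called. The neuron list had 0 calls in a fit of the RNAi libraries alone and without N2 RNAi replicate 2, and 3 higher calls without glp-1 RNAi replicate 1 or 2.

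Body wall muscle markers were called in both directions, and single markers of the intestine and pharynx were called. Of 17 intestine markers 1 was lower (5.88%, beside 7.54% of all genes), the peptide transporter gene pept-1, at 238 and 258 CPM in N2 and 118 and 152 CPM in glp-1 (log2 -0.88, adjusted p = 0.00552). Of 20 body wall muscle markers 4 were higher (20%, beside 10.6% of all genes), namely mlc-1, mlc-2, pat-10 and unc-27, and 2 lower (10%), myo-3 and unc-22. With the length trend removed or without N2 RNAi replicate 2, 0 of the 20 were called. The gene unc-22, of 21540 coding bases, turned from -0.74 to 0.084 with that trend removed. Of 12 pharynx markers 1 was higher (tni-4, 8.33%), and of 15 genes of the somatic gonad 0 were called by edgeR. Of 79 ribosomal protein genes 2 were higher (2.53%), but with the length trend removed 0 were higher and 20 lower. Of 25 histone genes, which can share reads, 4 were higher (16%), and 0 were higher and 1 lower with that trend removed. Of 7 ETS factor genes 1, ets-6, was lower (log2 -0.49, adjusted p = 0.0415), and it was called under 7 of the 16 alternatives, not with the length trend removed or without N2 RNAi replicate 2. Of 44 genes first read in the embryo 3 were higher (6.82%) and 2 lower (4.55%), both below the shares of all genes. Without N2 RNAi replicate 2, 0 of the intestine, pharynx, ribosomal and histone genes were called, and 0 higher and 1 lower of the embryonic ones.

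**Figure D3:**
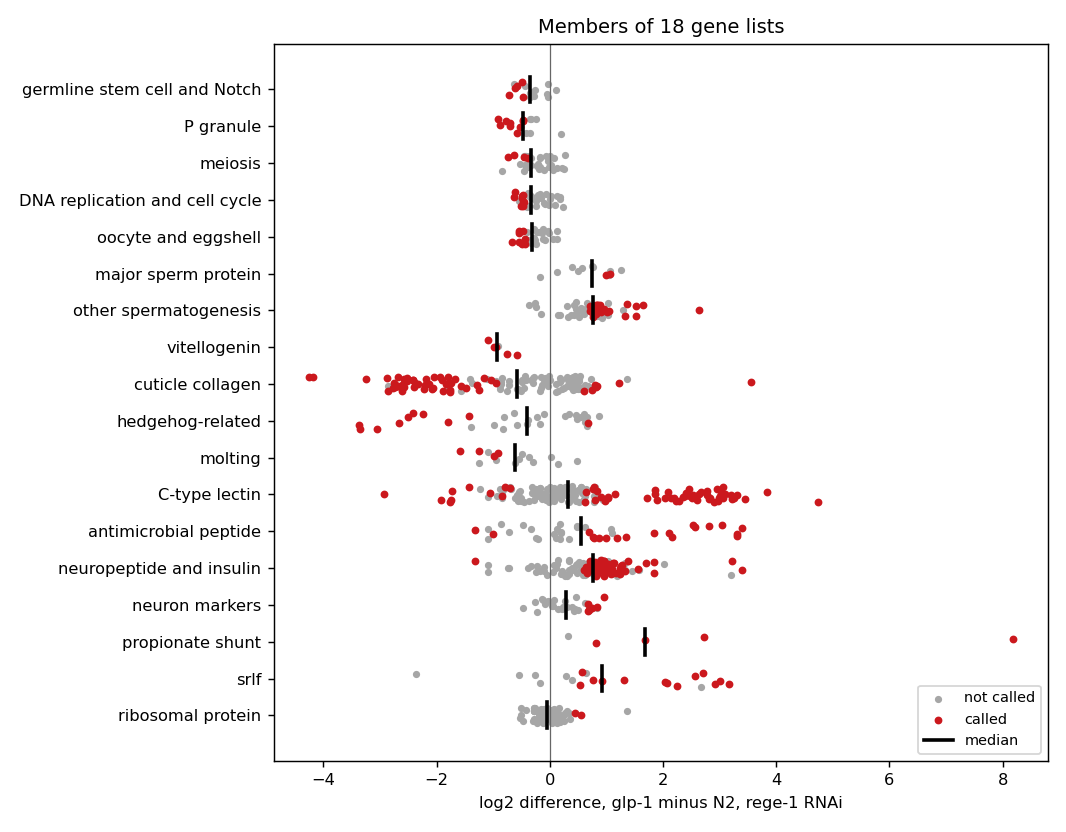
Log2 difference between glp-1 and N2 under rege-1 RNAi for each tested member of 18 gene lists, with called genes in red, others in grey and the median of each list as a black bar. The germline lists sit just under 0, the sperm, neuropeptide and propionate shunt medians lie at 0.75 or above, and the called collagens lie mostly below -1.

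Most strain differences under RNAi had the same direction under mock. Of the 1491 genes called under mock (9.73% of those tested; 995 or 6.49% higher and 496 or 3.24% lower), 1015 were called in the same direction under RNAi and 4 in the opposite one (cyp-13A12, clec-67, clec-72 and the unnamed gene WBGene00019135). Of the RNAi calls this was 680 of 1619 higher genes (42%) and 335 of 1155 lower ones (29%), and of the mock calls it was 68.3% of the higher and 67.5% of the lower. Both contrasts share no library but share the estimate of spread. The mock count was 620 and 806 without N2 mock replicate 1 or 2, 485 and 458 without glp-1 mock replicate 1 or 2, 2304 without glp-1 RNAi replicate 2 and 2448 in a fit of the mock libraries alone, and the count called under both feedings fell to 373 without glp-1 mock replicate 2. Among the 1015 genes the difference was larger under RNAi for 48.1%. Of the 436 genes called under every alternative, 378 (86.7%) were also called under mock.

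Another 1755 genes were called under RNAi and not under mock, 938 higher and 817 lower. Of the 938, 878 (93.6%) also had a log2 above 0 under mock, with medians of 0.86 under RNAi and 0.42 under mock. Of the 817, 782 (95.7%) were below 0 under mock, with medians of -0.62 and -0.34. The test of the difference between the contrasts called 0 of the 1755 by edgeR. Its unadjusted p was under 0.05 for 186 of the 938 (19.8%) and 88 of the 817 (10.8%), beside 5.4% of all genes. The 1755 were picked by calls from the same fit, which favours a larger difference under RNAi. These shares and medians are therefore no support for strain differences limited to RNAi. For none of the 1755 was such a limited difference established by the test of the difference. The count of such genes was 99 without N2 RNAi replicate 2, 392 without glp-1 RNAi replicate 1, 1055 and 1080 without glp-1 mock replicate 1 or 2, and 242 where each feeding was fitted alone. With the length trend removed 881 of the 1755 (50.2%) were still called under RNAi.

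**Figure D4:**
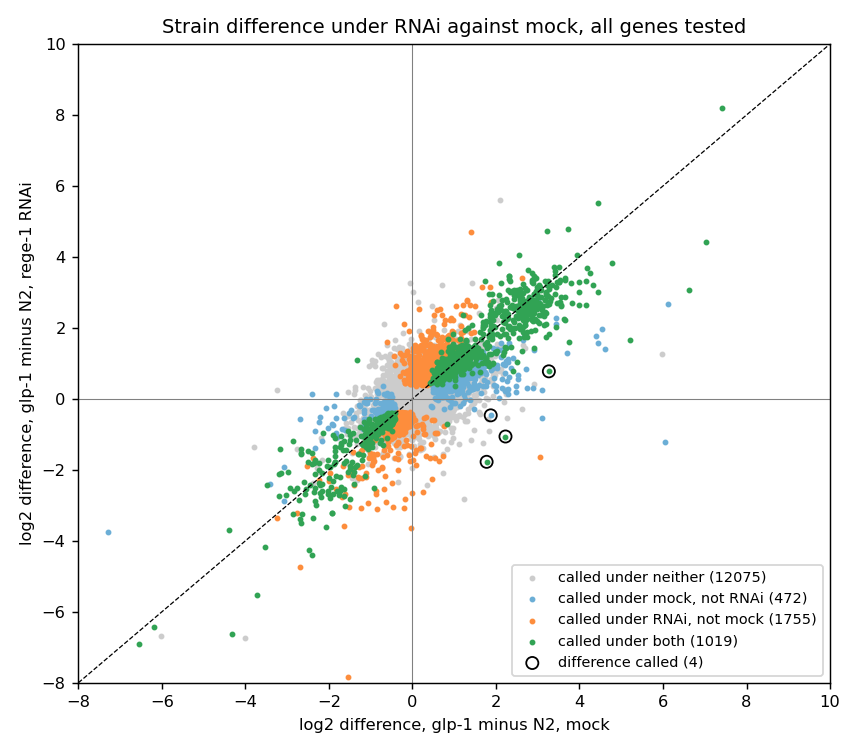
Log2 difference between glp-1 and N2 under rege-1 RNAi (vertical axis) against that under mock (horizontal axis) for the 15321 genes, coloured by the feeding under which a gene was called, with the line of equal values dashed. Genes called under RNAi and not under mock lie mostly on the same side of 0 under both feedings, and the 4 circled genes, whose strain differences differed between the feedings by test, lie below the line.

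The members of that group with the largest differences were named. Higher in glp-1 were the FMRFamide-like peptide gene flp-26, at 2.92 and 1.58 CPM in N2 and 8.48 and 7.63 CPM in glp-1 (log2 1.84, adjusted p = 0.00348, against 0.57 under mock), the sperm gene msd-2 (log2 1.53 against 0.41) and gpdh-1, for a glycerol-3-phosphate dehydrogenase that serves glycerol synthesis (log2 1.32 against 0.35). Both glp-1 libraries were above both N2 libraries under RNAi in each case, as the rule for naming asked. Among the genes named as lower, pcp-2 and cat-4 had small strain differences under mock, and spp-9 was too low there for one to be read. The saposin-like gene spp-9 was at 8.61 and 5.43 CPM in N2 and 1.04 and 0.933 CPM in glp-1 under RNAi (log2 -2.82, adjusted p = 2.21e-04) and at most 0.0350 CPM in any mock library. The carboxypeptidase gene pcp-2 was at 707 and 828 against 204 and 327 CPM (log2 -1.53, adjusted p = 0.00114) and at 84.8 and 109 against 105 and 96.99 CPM under mock. The gene cat-4, for the GTP cyclohydrolase that supplies the cofactor of serotonin and dopamine synthesis, was at 299.6 and 214 against 107 and 106 CPM (log2 -1.27, adjusted p = 0.00112) and at 49.97 and 65.9 against 78.7 and 78.1 CPM under mock. The adjusted p of the difference was 0.188 for pcp-2 and 0.0609 for cat-4, and the difference was not called for spp-9 either.

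Some genes far above their mock levels under RNAi were lower in glp-1 than in N2. The contrasts of feeding and of strain share the RNAi libraries, so the values are given side by side only. The saposin-like gene spp-12 reached 217 and 195 CPM in N2 and 53.5 and 30.3 CPM in glp-1 under RNAi, from at most 0.245 CPM in any mock library, and asp-12 came from 10.8 and 10.4 CPM in N2 and 4.99 and 6.27 CPM in glp-1. Both were thus above their mock levels in both strains and lay higher in both N2 libraries (spp-12 log2 -2.30, adjusted p = 8.02e-05). The lectin gene clec-70 came from 0.526 and 0.311 CPM in N2 and 0.062 and 0.0649 CPM in glp-1, and the transferase gene ugt-18 reached 508 and 468 CPM in N2 and 238 and 285 CPM in glp-1 (log2 -0.90) from 1.86 and 1.48 CPM in N2 and 0.744 and 0.39 CPM in glp-1. The differences between the feedings in the strain contrast were not called for these 4 genes, with adjusted p from 0.193 for asp-12 to 0.993 for spp-12.

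The test of the difference between the contrasts called 4 genes (0.0261% of those tested), all with a more negative strain difference under RNAi than under mock. The lectin gene clec-125 was at 13.2 and 13.5 CPM in N2 and 24.4 and 21.5 CPM in glp-1 under RNAi, and at 1.75 and 1.75 against 15.9 and 17.9 CPM under mock (difference -2.49, SE 0.25, edgeR adjusted p = 0.00769). It was higher in glp-1 under both feedings, by less under RNAi. The lectin gene clec-72 was at 29.5 and 38.6 CPM in N2 and 16.8 and 15.8 CPM in glp-1 under RNAi, and at 0.631 and 0.311 against 2.17 and 2.34 CPM under mock (difference -3.29, adjusted p = 0.0162). The cytochrome P450 gene cyp-13A12 was at 5.61 and 6.02 against 1.81 and 1.59 CPM under RNAi, and at 0.456 and 0.156 against 1.02 and 1.14 CPM under mock (difference -3.55, adjusted p = 0.0429). Both genes were called higher in glp-1 under mock and lower under RNAi. The carnitine palmitoyltransferase gene cpt-3 was at 9.48 and 8.07 against 6.57 and 6.15 CPM under RNAi and at 1.82 and 1.63 against 5.7 and 7.01 CPM under mock (difference -2.34, adjusted p = 0.0248), and was called under mock alone. DESeq2 called 30 genes, these 4 among them. Without a library the count ran from 0 (without N2 mock replicate 1 or 2, or glp-1 mock replicate 2) over 1 without glp-1 mock replicate 1 and 2 without glp-1 RNAi replicate 1 to 415 (without glp-1 RNAi replicate 2), so that single libraries decide it.

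**Figure D5:**
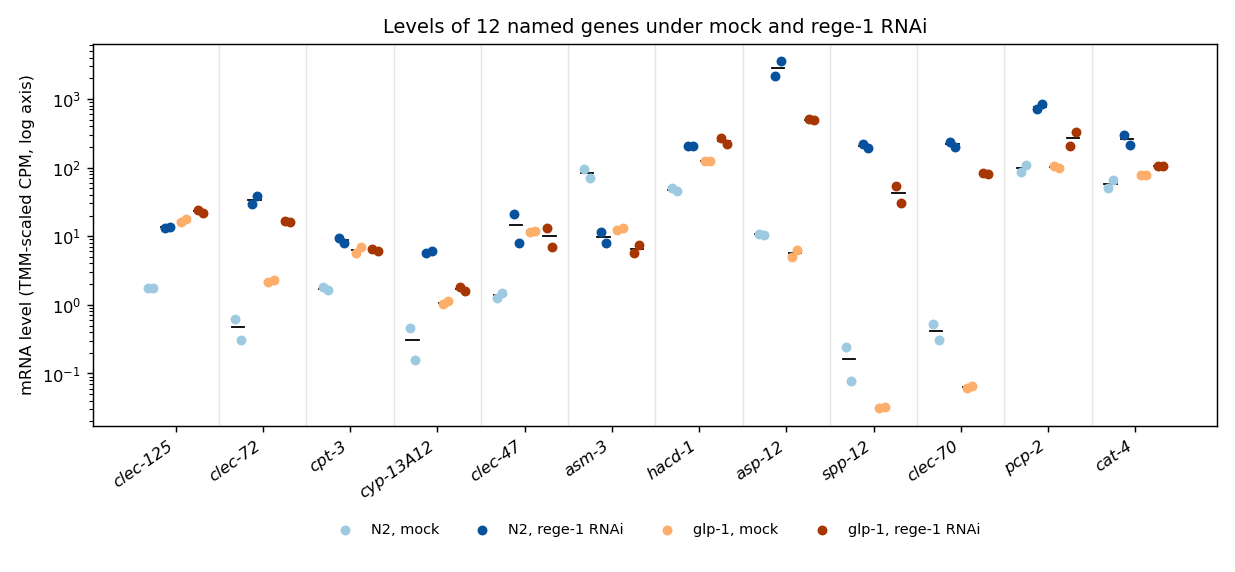
Levels of 12 genes in each of the 8 libraries, in CPM on a log axis, with 1 point per library, a bar at the mean of the 2 libraries and colours for the 4 groups. For clec-125, clec-72, cpt-3 and cyp-13A12 the gap between RNAi and mock is wider in N2 than in glp-1, the strain gap of asm-3 and hacd-1 narrows under RNAi, and asp-12, spp-12, clec-70, pcp-2 and cat-4 are highest in N2 under RNAi.

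Strain differences called under mock and not under RNAi numbered 312 higher and 160 lower, of which 295 and 147 kept their sign under RNAi. The acid sphingomyelinase gene asm-3 was at 95.6 and 71.4 CPM in N2 and 12.5 and 13.2 CPM in glp-1 under mock (log2 -2.70, adjusted p = 1.11e-05) and at 11.5 and 8.07 against 5.7 and 7.43 CPM under RNAi (log2 -0.57, adjusted p of the difference = 0.05003). The lectin gene clec-218 went from 39.2 and 40.8 against 8.46 and 8.86 CPM under mock to 1.48 and 1.1 against 0.73 and 1.07 CPM under RNAi. The hydroxyacyl-CoA dehydrogenase gene hacd-1 was at 50 and 45.2 against 125.1 and 124 CPM under mock (log2 1.39) and 208 and 207 against 271 and 223 CPM under RNAi (log2 0.25). The difference was not called for these 3 genes.

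Intron counts, another readout of the same libraries, gave 26 called genes of 5042 tested (0.516%), 21 higher (0.417%) and 5 lower (0.0992%) in glp-1. Among the lower ones was rege-1, whose intron counts were above mock under RNAi in both strains and may hold reads from the trigger, which was not tested. Of the genes tested in both, 13 were called higher in both readouts, 2 lower in both and 0 in opposite directions. Totals were from 464385 to 684124 intron counts per library, and small differences may have been missed. How far this depth limited the intron calls was not tested. Without any 1 of the 4 RNAi libraries the count was 9 to 15, lowest without N2 RNAi replicate 2. The introns of acdh-1 had 2 and 0 counts in N2 and 45 and 22 in glp-1 under RNAi, and 0 in both N2 mock libraries. The neuropeptide gene nlp-4 had 8 and 6 intron counts in N2 against 358 and 296 in glp-1 (log2 5.37, edgeR adjusted p = 2.97e-09), and its mRNA was not called (log2 0.63). The desaturase gene fat-6 had 90 and 100 intron counts in N2 against 244 and 253 in glp-1 (log2 1.22), and its mRNA did not differ by the test (log2 0.07, adjusted p = 0.824). These 3 genes and rege-1 were chosen from the 26 after their values had been seen.

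By chromosome, the share of genes higher in glp-1 under RNAi ran from 7.48% on the X to 14% on chromosome V, and the share lower from 5.48% on chromosome V to 8.93% on chromosome III. Of the 15321 genes that passed the filter, 3 had 0 counts in all 4 glp-1 libraries, namely srw-85, nspe-7 and scl-11, which had from 0 to 19 counts in the N2 libraries.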

How the data were processed

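RNA was extracted with Trizol and libraries were made with the ScriptSeq v2 kit from whole animals, per the labels' protocols. Aligner, genome build and strand of counting: not given in the sources used here. The authors deposited whole-number counts per gene, separately for mRNA and introns. Log2 values deposited beside them equal, by a check, log2 of the sum of 8 and the count rescaled to the average library total (largest deviation 5.15e-14). All 8 libraries were mapped by their column names, and 0 other sample columns were left unused. Genes that overlap or have near-identical copies (msp, his, vit, clec and fip genes) may share reads.

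Counts were filtered with filterByExpr (minimum count 10) and scaled by TMM, and all 8 libraries, 2 per group, were fitted in edgeR 4.0.16 (R 4.3.3) with 4 residual degrees of freedom. The quasi-likelihood test was robust and two-sided, with Benjamini-Hochberg adjustment over all 15321 genes at 0.05. The contrasts were glp-1 against N2 under RNAi, the same under mock, and their difference. CPM values use TMM-scaled totals. Coding lengths come from the deposited gene widths, 96.6% of which are multiples of 3, and coordinates from Ensembl 115 (WBcel235). The alternatives were other scalings, no filter, the compared libraries alone, a replicate block, DESeq2 1.42.0, limma 3.58.1, removal of the trend over coding length and leaving out each library. The scripts were tested on simulated data.

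The genes compared and the 38 gene lists were chosen with earlier results of these data known, and 5 further lists after values had been seen. Named genes were rege-1, ets-4 and glp-1, the 15 largest differences each way (a mean of 5 CPM or more where higher, no overlap), all genes of the difference test, the 10 largest each way called under 1 feeding alone, up to 5 members per list with the lowest p (12 for the lists added), up to 3 called against their list's direction, and all vitellogenins. Some genes used as examples were chosen outside this rule after their values were seen.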

Additional observations from a re-analysis of the deposited data

Results flagged for a closer look

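In 4 genes the strain difference differed between the feedings by the test of the difference itself. The log2 strain difference under RNAi minus that under mock was -2.49 for clec-125 (edgeR adjusted p = 0.00769), -3.29 for clec-72 (adjusted p = 0.0162), -2.34 for cpt-3 (adjusted p = 0.0248) and -3.55 for cyp-13A12 (adjusted p = 0.0429). All 4 were called for the difference under each alternative that used all 8 libraries, and 0 of them without N2 mock replicate 1 or 2 or without glp-1 mock replicate 2. The mock levels of clec-72 and cyp-13A12 in N2 were at most 0.631 and 0.456 CPM, so that their mock differences rest on few counts.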

How the results depend on the processing

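The counts of called genes depended on the settings, and the cause was not tested unless the setting itself gives it. For glp-1 against N2 under RNAi, the split into higher and lower was 2610 and 548 by library size alone and 2651 and 576 by limma on the deposited log2 values. In the RNAi libraries alone, where the mock libraries do not enter the spread, it was 598 and 277 (875 in all). By DESeq2 it was 1389 and 1494. Under mock, library size alone gave 269 lower, limma 1521 higher and 268 lower, and the mock libraries alone 2448 in all and 995 lower. With each feeding fitted alone, 630 genes were called under both and 242 under RNAi and not mock. The difference between the contrasts gave 1 higher gene by RLE and by library size alone. It gave 11 genes with no filter (2 higher, 9 lower), 30 by DESeq2 (11 and 19) and 12 with the length trend removed (2 and 10), and no fit of the compared libraries alone exists for it. For introns, library size alone gave 2 lower and no filter gave 53 (45 higher, 8 lower); limma and the length trend were not run for introns.

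Leaving out 1 library at a time, RNAi calls ran from 517 to 4031 (377 to 1621 higher, 140 to 2410 lower), mock calls from 458 to 2304 (382 to 1287 higher, 76 to 1077 lower), and calls of the difference from 0 to 415 (0 to 27 higher, 0 to 388 lower). Genes called under both feedings ran from 373 to 1417, those under RNAi and not mock from 99 to 2605, and intron calls from 9 to 15 (7 to 12 higher, 2 to 4 lower). The labels do not say whether replicate numbers pair the libraries. The correlation of same-numbered deviations between groups ran from -0.114 to 0.169, which cannot decide it with 2 libraries a group. With the numbers as a replicate block, 2938 genes were called under RNAi, the difference gave 8 (1 higher, 7 lower), and introns gave 32 higher of 38. Of the named genes, unc-22 turned from -0.74 to 0.084 (adjusted p = 0.697) with the length trend removed. With 2 libraries a group and 4 residual degrees of freedom, small differences can be missed, although 840 higher and 909 lower RNAi calls were under 2-fold. Genes under a few CPM rest on few counts.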
